A study of Rattus norvegicus with 12 samples.

Results

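The Cyp4 fatty acid hydroxylases described here were 8 rat genes, Cyp4a1, Cyp4a2, Cyp4a3, Cyp4a8, Cyp4b1, Cyp4f1, Cyp4f4 and Cyp4f18, chosen by name from 15284 genes named on the array, which also carried other genes of the family, and read by every non-control probe whose RefSeq transcript carries one of those symbols. That gave 12 of the 61657 non-control probes: 3 for Cyp4a8, 2 each for Cyp4a1 and Cyp4a2, and 1 for each of the others. RNA came from kidney cortex of Sprague-Dawley (Crl:CD(SD)) males bought at 5 weeks of age and was read on one-colour Agilent arrays, 1 per rat. There were 4 groups of 3 rats, described by the submitters as biological replicates. These were TBA rats killed under CO2-O2, vehicle rats killed under CO2-O2, TBA rats killed under isoflurane, and vehicle rats killed under isoflurane. TBA rats received tert-butyl alcohol, a solvent and a metabolite of ether fuel additives, at 1000 mg/kg/day for 4 weeks. Vehicle rats received water for the same time. All rats were bled under gas anesthesia 24 h after the last dose, so no group was free of anesthetic.

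Enzymes of the Cyp4 family are cytochromes P450 that add a hydroxyl group to the end carbon of fatty acids, the first step of omega-oxidation. In rat kidney the Cyp4a enzymes convert arachidonic acid to a hydroxyeicosatetraenoic acid that acts on vascular tone and on tubular salt transport, and Cyp4a1 is a classic target of the nuclear receptor PPAR alpha. Cyp4f enzymes also act on leukotrienes and other long-chain fatty acids, and Cyp4b1 is known for activating xenobiotics in lung.

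No Cyp4 gene rose or fell with TBA or with the anesthetic after adjustment for all features tested. Levels are log2 of the processed signal with the 75th percentile of each array set to 0, so they rank rats for 1 probe and not probes for 1 rat. The widest estimate among genes measured on every array was Cyp4a1 under isoflurane, 0.61 ± 0.23 (log2, SE, limma adjusted p = 0.204), or 1.52-fold higher in TBA rats. The probes of Cyp4a1, Cyp4a2, Cyp4a3, Cyp4a8, Cyp4b1 and Cyp4f1 were well above background on all 12 arrays, the Cyp4f4 probe on 9 and the Cyp4f18 probe on 3. None of the 12 probes was saturated or flagged as an outlier on any array. Of the 12 probes, 11 passed the filter on dim probes (every array of some group well above background), which left 7 Cyp4 genes among the 29603 features tested. Where a gene had several probes, the brightest stood for it.

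Between 61.6% and 71.0% of probes exceeded background per array, and replicate arrays had correlations of 0.989 to 0.994. The arrays lay on 3 slides. TBA CO2-O2 rat 3 shared slide 1 with all vehicle CO2-O2 rats, TBA CO2-O2 rats 1 and 2 shared slide 2 with all vehicle isoflurane rats, and the TBA isoflurane rats had slide 3 to themselves. Scan day 1 covered slide 1 only, and scan day 2 both other slides. The TBA and vehicle isoflurane rats thus shared no slide, and for them slide and treatment cannot be told apart. Marker genes of the proximal tubule, the main site of Cyp4a enzymes in the cortex, were all measured: 11 of 11 for segments S1 and S2 and 7 of 7 for segment S3. In a bulk sample fewer cells of a type and less RNA per cell cannot be told apart.

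**Figure D1:**
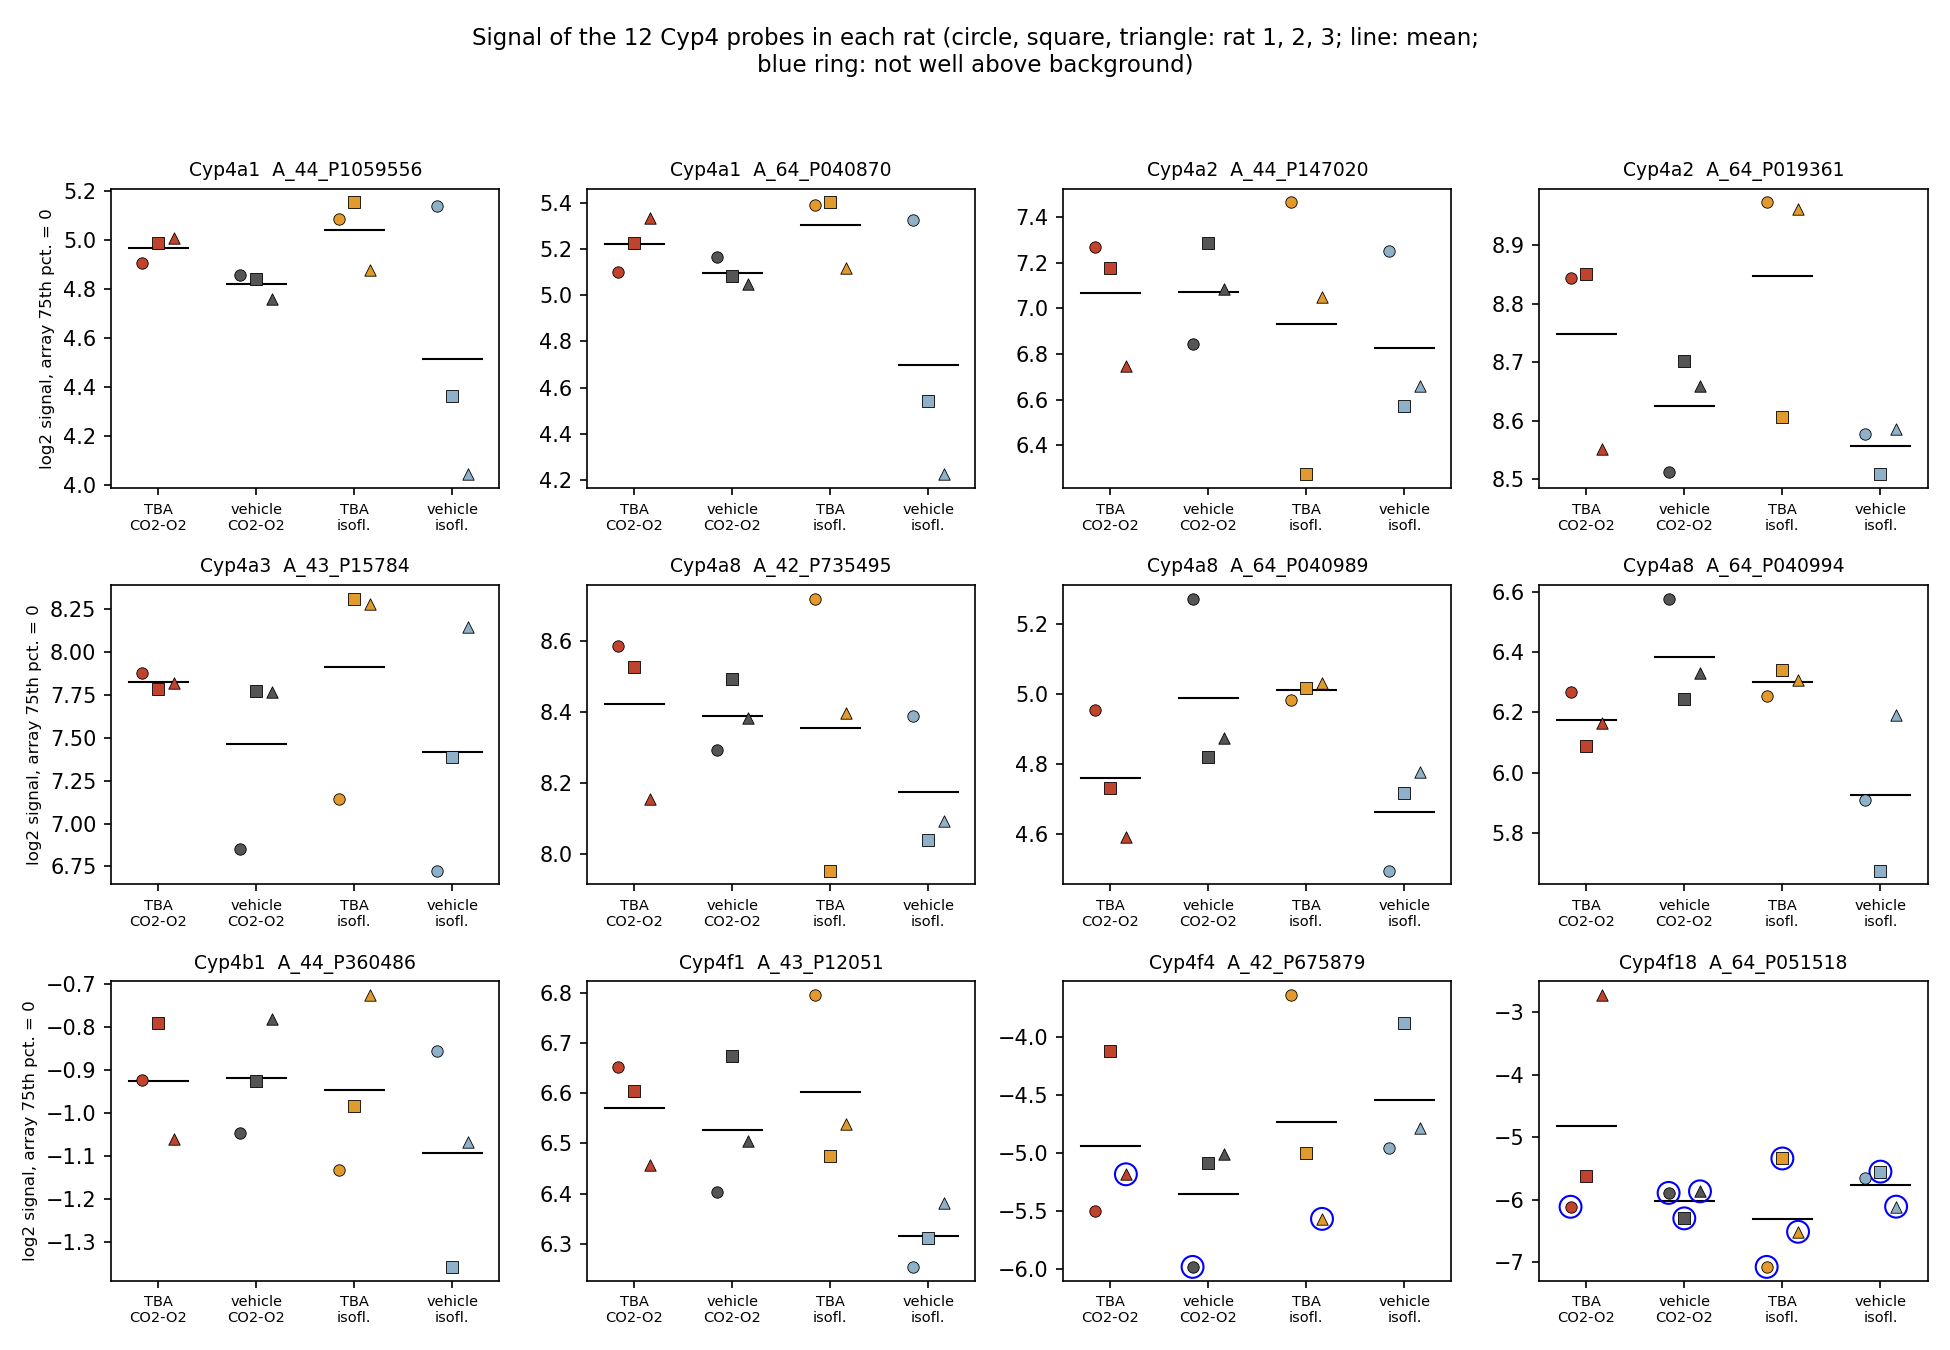
Level of each of the 12 Cyp4 probes in every rat, as log2 signal with the array's 75th percentile at 0, in a panel per probe with its own vertical scale. Points are rats 1 to 3 of each group (circle, square, triangle), lines are group means and blue rings mark spots not well above background. Cyp4a1 was low in 2 of 3 vehicle isoflurane rats, and Cyp4a3 was low in rat 1 of 3 groups.

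Cyp4a1, the fatty acid omega-hydroxylase best known as a PPAR alpha target in rat liver, varied most in the isoflurane rats. Its brighter probe read 5.39, 5.40 and 5.12 in TBA isoflurane rats 1 to 3, against 5.33, 4.54 and 4.22 in vehicle isoflurane rats 1 to 3. It read 5.10, 5.22 and 5.33 in TBA CO2-O2 rats, against 5.16, 5.08 and 5.05 in vehicle CO2-O2 rats. Rats 2 and 3 of the vehicle isoflurane group were lower than all 10 other rats, while vehicle isoflurane rat 1 lay within the range of the TBA isoflurane rats, so the groups overlapped. The second Cyp4a1 probe read 5.08, 5.15 and 4.88 in TBA isoflurane rats and 5.14, 4.36 and 4.04 in vehicle isoflurane rats, again with vehicle rats 2 and 3 low. Under CO2-O2 it read 4.91, 4.99 and 5.01 in TBA rats, against 4.86, 4.84 and 4.76 in vehicle rats, without overlap, where the brighter probe overlapped. In order of mean level the groups ran TBA isoflurane (5.30 ± 0.16), TBA CO2-O2 (5.22 ± 0.12), vehicle CO2-O2 (5.10 ± 0.06) and vehicle isoflurane (4.70 ± 0.57; SD, n = 3 each). Neighbours in that order did not differ beyond the spread between rats.

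The limma estimate for Cyp4a1 was 0.61 under isoflurane (95% interval 0.10 to 1.11, unadjusted p = 0.0232) and 0.12 ± 0.23 under CO2-O2 (SE, adjusted p = 0.845). Both SEs use a spread pooled over all groups. The vehicle isoflurane rats (SD 0.57) thus widen the CO2-O2 SE, though the CO2-O2 rats varied less (SD 0.12 with TBA, 0.06 with vehicle). Averaged over the anesthetics it was 0.36 ± 0.16 (SE, adjusted p = 0.254). The difference between the 2 TBA effects was 0.48 ± 0.32 (SE, adjusted p = 0.571). The Cyp4a1 result turned on single vehicle isoflurane rats. Without vehicle isoflurane rat 3 the isoflurane effect on Cyp4a1 was 0.37 (adjusted p = 0.424). Without vehicle isoflurane rat 1 the isoflurane effect on Cyp4a1 was 0.92 ± 0.12 (SE, adjusted p = 0.0371) and the averaged effect 0.52 ± 0.08 (SE, adjusted p = 0.0333). With every rat in the limma fit, neither value passed.

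Cyp4a2, one of the arachidonic acid omega-hydroxylases of rat kidney, was higher in TBA isoflurane rats than in vehicle isoflurane rats on its brighter probe, but did not pass after adjustment. That probe read 8.97, 8.61 and 8.96 in TBA isoflurane rats, against 8.58, 8.51 and 8.59 in vehicle isoflurane rats. It read 8.84, 8.85 and 8.55 in TBA CO2-O2 rats, against 8.51, 8.70 and 8.66 in vehicle CO2-O2 rats. The isoflurane groups did not overlap, and the CO2-O2 groups did. By limma the change was 0.29 ± 0.12 under isoflurane (SE, adjusted p = 0.231), 0.12 ± 0.12 under CO2-O2 (SE, adjusted p = 0.671) and 0.21 ± 0.08 averaged (SE, adjusted p = 0.209). Quantile normalization in place of the 75th percentile brought the isoflurane change of Cyp4a2 to 0.07.

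The dimmer Cyp4a2 probe read 7.47, 6.27 and 7.05 in TBA isoflurane rats, against 7.25, 6.57 and 6.66 in vehicle isoflurane rats. Under CO2-O2 it read 7.27, 7.18 and 6.75 in TBA rats, against 6.84, 7.29 and 7.09 in vehicle rats. Groups overlapped on this probe, and its change was 0.10 ± 0.29 under isoflurane and -0.01 ± 0.29 under CO2-O2 (SE).

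Cyp4a3, a close relative of Cyp4a2 and another renal arachidonic acid hydroxylase, differed more between rats of 1 group than between groups. It read 7.14, 8.31 and 8.28 in TBA isoflurane rats, against 6.73, 7.39 and 8.15 in vehicle isoflurane rats. It read 7.88, 7.78 and 7.82 in TBA CO2-O2 rats, against 6.85, 7.78 and 7.77 in vehicle CO2-O2 rats. Rat 1 was the low one in all groups but TBA CO2-O2, whose 3 rats had an SD of 0.05 and lay, by a narrow margin, above the vehicle CO2-O2 rats. The lowest and highest of the 12 rats were 3.01-fold apart, and 95.3% of the kept probes had a smaller spread within groups. By limma the change was 0.49 ± 0.41 under isoflurane (SE, adjusted p = 0.576) and 0.36 ± 0.41 under CO2-O2 (SE, adjusted p = 0.732). Single rats set both values for Cyp4a3: the CO2-O2 change was 0.05 without vehicle CO2-O2 rat 1, and the isoflurane change was 0.15 without vehicle isoflurane rat 1 and 0.88 without TBA isoflurane rat 1. The interval of the averaged effect on Cyp4a3, -0.22 to 1.08, holds 0 as well as a change of 1.

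Upstream sequences of Cyp4a2 and Cyp4a3 are shown because these neighbours on chromosome 5 are nearly the same there, while their signals varied separately. The 250 bases before the start of each gene come from the RefSeq promoter table of GRCr8, both on the minus strand and written 5′ to 3′ in gene sense, at chr5:134170909-134171158 for Cyp4a2 and chr5:134352237-134352486 for Cyp4a3. Capitals mark the letters AGGTCA, the hexamer that receptors such as PPAR alpha bind as a tandem repeat.
Cyp4a2: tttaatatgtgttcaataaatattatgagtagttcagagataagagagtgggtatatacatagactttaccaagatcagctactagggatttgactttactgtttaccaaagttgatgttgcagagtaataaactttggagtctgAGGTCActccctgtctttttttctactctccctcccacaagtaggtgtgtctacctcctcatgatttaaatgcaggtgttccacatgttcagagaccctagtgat
Cyp4a3: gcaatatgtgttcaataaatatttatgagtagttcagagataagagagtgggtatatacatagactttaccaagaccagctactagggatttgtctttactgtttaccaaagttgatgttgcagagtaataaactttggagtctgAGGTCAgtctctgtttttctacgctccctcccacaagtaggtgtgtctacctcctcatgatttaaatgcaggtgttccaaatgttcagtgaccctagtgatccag
In a global alignment the pair shared 236 of 245 aligned bases (96.3%), against 46.0% to 61.4% for the other pairs among the 7 promoters of 6 members that the table holds. AGGTCA, or its reverse complement TGACCT, occurred once in each of these 2 at position -105 and in none of the other 5 promoters, and 14.1% of all 33469 promoters hold it. None of these 7 promoters held the direct repeat AGGTCANAGGTCA or the looser AGGNCANAGGNCA on either strand, forms held by 0.0508% and 0.368% of promoters. Cyp4a1 and Cyp4f4 have no promoter among them and were not searched. Sequence farther upstream than 250 bases was not searched for any gene. After removal of group means, the deviations of Cyp4a3 correlated with those of the Cyp4a2 probes at r = -0.06 for the brighter (rho = -0.14) and r = -0.47 for the dimmer (rho = -0.38) over 12 arrays. Without the 2 arrays farthest from the median, these were 0.21 and -0.16.

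Cyp4a8, a further Cyp4a form of rat kidney, was read by 3 probes that disagreed. The brightest read 8.72, 7.95 and 8.40 in TBA isoflurane rats, against 8.39, 8.04 and 8.09 in vehicle isoflurane rats. Under CO2-O2 it read 8.59, 8.53 and 8.15 in TBA rats, against 8.29, 8.49 and 8.38 in vehicle rats. The groups overlapped under both anesthetics, and the limma change was 0.18 ± 0.19 under isoflurane (SE, adjusted p = 0.665) and 0.03 ± 0.19 under CO2-O2 (SE, adjusted p = 0.954).

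The other 2 Cyp4a8 probes were higher in TBA than in vehicle rats under isoflurane, with no overlap, and had means lower in TBA rats under CO2-O2. Of these, A_64_P040994 read 6.26, 6.34 and 6.31 in TBA isoflurane rats, against 5.91, 5.68 and 6.19 in vehicle isoflurane rats. It read 6.27, 6.09 and 6.17 in TBA CO2-O2 rats, against 6.58, 6.25 and 6.33 in vehicle CO2-O2 rats. The third, A_64_P040989, read 4.98, 5.02 and 5.03 in TBA isoflurane rats, against 4.50, 4.72 and 4.78 in vehicle isoflurane rats, and 4.96, 4.73 and 4.59 in TBA CO2-O2 rats, against 5.27, 4.82 and 4.87 in vehicle CO2-O2 rats. In a limma fit of all 40216 kept probes, A_64_P040994 differed by 0.38 ± 0.13 under isoflurane (SE, adjusted p = 0.166) and by -0.21 ± 0.13 under CO2-O2 (SE, adjusted p = 0.493). A_64_P040989 differed by 0.35 ± 0.13 (SE, adjusted p = 0.212) and by -0.23 ± 0.13 (SE, adjusted p = 0.477). The 2 TBA effects differed by 0.59 ± 0.18 and 0.58 ± 0.19 on these probes (SE, adjusted p = 0.269 and 0.291), which did not pass.

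Rat by rat, the brightest Cyp4a8 probe followed the Cyp4a2 probes instead of the other Cyp4a8 probes. Its deviations from the group means correlated with those of the dimmer Cyp4a2 probe at r = 0.98 (rho = 0.99, r = 0.96 without the 2 farthest arrays) and with the brighter one at r = 0.88 (rho = 0.78, 0.70). With the other Cyp4a8 probes the values were r = -0.14 (rho = -0.20) and r = -0.10 (rho = -0.28), while those 2 probes correlated with each other at r = 0.57 (rho = 0.59, 0.34). The 2 Cyp4a1 probes correlated at r = 0.99 and the 2 Cyp4a2 probes at r = 0.85. Among 55 pairs of probes these are descriptions over 12 arrays that share normalization, slides and tissue. Probe sequences were not used here, and whether a probe also reads a neighbouring Cyp4a transcript was not tested.

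**Figure D2:**
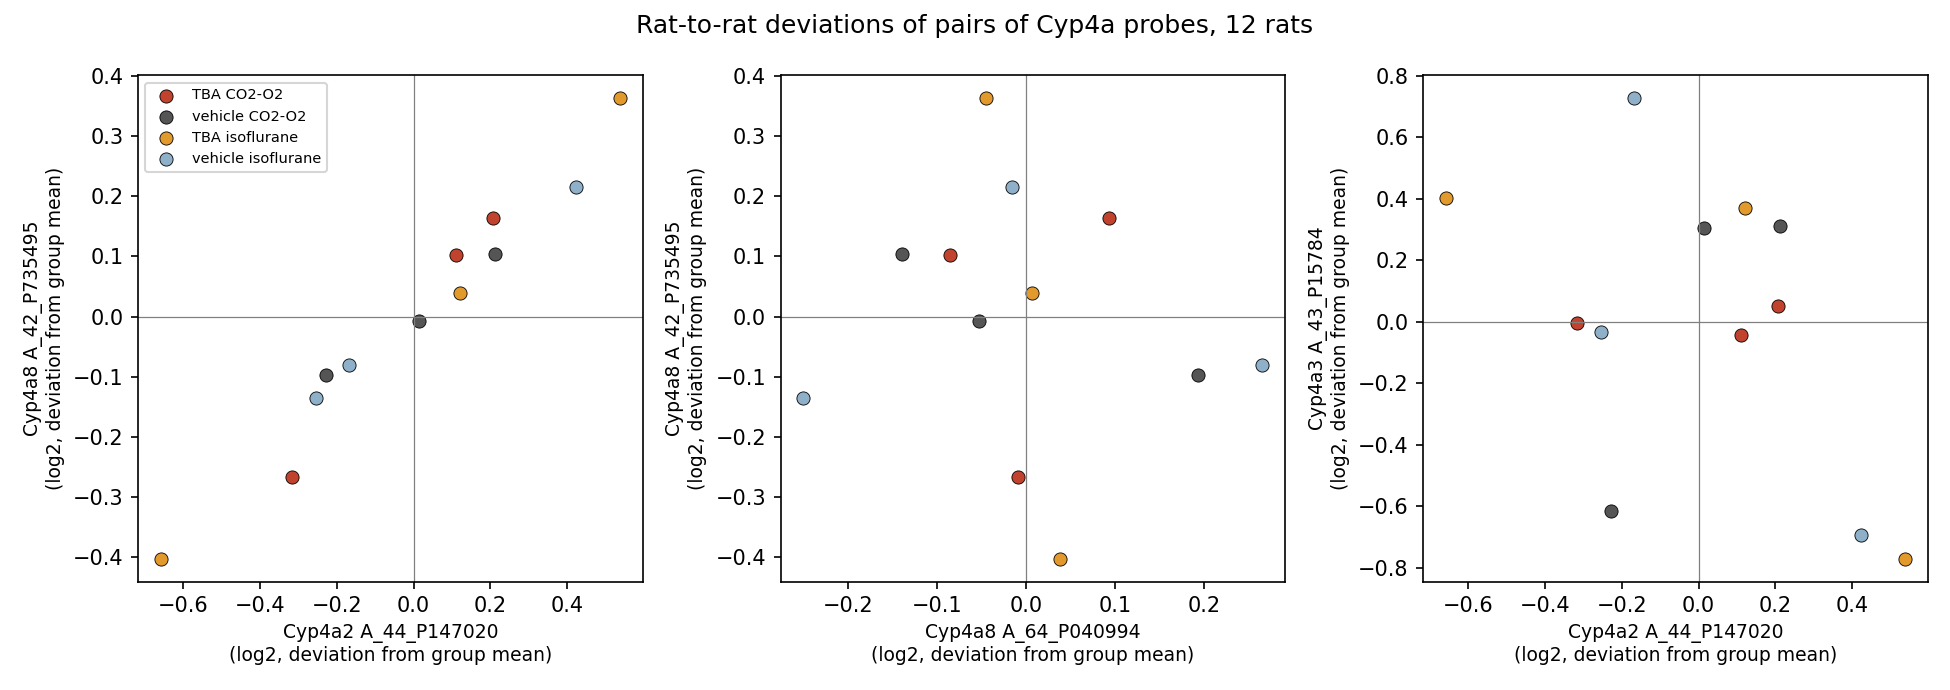
Deviation of each rat from its group mean (log2) for 3 pairs of Cyp4a probes, with 12 rats coloured by group. The brightest Cyp4a8 probe lies along a line with the dimmer Cyp4a2 probe (r = 0.98), shows no line with another Cyp4a8 probe (r = -0.14), and Cyp4a3 against the dimmer Cyp4a2 probe slopes down (r = -0.47).

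Summed signal of the 7 S3 markers, relative to the array's 75th percentile, moved with these probes in part. It was 236, 71.4 and 144 in TBA isoflurane rats 1 to 3, against 88.0, 115 and 142 in vehicle isoflurane rats. It was 232, 136 and 106 in TBA CO2-O2 rats, against 270, 216 and 239 in vehicle CO2-O2 rats. Of the 7 markers, 7 were higher with TBA under isoflurane and 1 under CO2-O2. In limma 0 were called and 1 of 7 was below 0.05 unadjusted under each anesthetic. That is near the share of all features below 0.05, 14.3% under CO2-O2 and 17.8% under isoflurane. TBA isoflurane rat 2 was lowest among the TBA rats for this sum and for the dimmer Cyp4a2 and brightest Cyp4a8 probes, and TBA isoflurane rat 1 was highest. In the vehicle rats the order was not kept: vehicle isoflurane rat 1 had the lowest sum of its group with the highest level on both probes, and vehicle CO2-O2 rat 1 the highest sum with the lowest level on both. The S1 and S2 marker sums, over the 10 of 11 genes with a value on every array, were 1179 to 1301 in TBA isoflurane rats, against 969 to 1085 in vehicle isoflurane rats, and 1078 to 1196 in TBA CO2-O2 rats, against 947 to 1051 in vehicle CO2-O2 rats. Of the 11 markers, 10 were higher with TBA under each anesthetic. In limma 6 of 11 were below 0.05 unadjusted under CO2-O2, against 14.3% of features, and 8 of 11 under isoflurane, against 17.8%. Under CO2-O2 1 was called (Slc5a12), against 0.149% of features, and under isoflurane 0, against 0.395%. The CO2-O2 call of Slc5a12 was lost in 17 of 24 alternative settings, among them slide as a random block (limma adjusted p = 0.0586). Slc5a12, a lactate transporter, rose by 0.68 ± 0.08 and Slc22a8, an organic anion transporter, by 0.38 ± 0.06 with TBA averaged over anesthetics (SE, limma adjusted p = 0.00993 and 0.0292). Over 23 alternative settings the averaged call was lost in 13 for Slc22a8 and in 0 for Slc5a12. Slc22a8 did not pass with the replicate block (limma adjusted p = 0.0513) or without vehicle isoflurane rat 2 (0.0672). Markers of liver, where Cyp4a1 is also abundant, were all 5 measured (Alb, Apoa1, Ttr, Serpina1 and Fgb), with summed signals of 1.21 to 6.54 in TBA isoflurane rats, against 3.31 to 11.7 in vehicle isoflurane rats, and 1.32 to 3.75 in TBA CO2-O2 rats, against 3.03 to 5.38 in vehicle CO2-O2 rats. The part of these segments and of liver RNA in the Cyp4 values was not tested.

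Cyp4b1 gave a low signal that was well above background in every rat and was flat. It read -1.13, -0.98 and -0.73 in TBA isoflurane rats, against -0.86, -1.36 and -1.07 in vehicle isoflurane rats, and -0.92, -0.79 and -1.06 in TBA CO2-O2 rats, against -1.05, -0.93 and -0.78 in vehicle CO2-O2 rats. All 4 groups overlapped. The limma change was 0.15 ± 0.14 under isoflurane and -0.01 ± 0.14 under CO2-O2 (SE, adjusted p = 0.648 and 0.988), with a 95% interval of -0.16 to 0.30 for the averaged effect.

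Cyp4f1, a fatty acid hydroxylase of the Cyp4f group, had the narrowest spread of the Cyp4 probes: 40.1% of kept probes varied less within groups. It read 6.80, 6.48 and 6.54 in TBA isoflurane rats, against 6.25, 6.31 and 6.38 in vehicle isoflurane rats. It read 6.65, 6.60 and 6.46 in TBA CO2-O2 rats, against 6.40, 6.67 and 6.50 in vehicle CO2-O2 rats. Under isoflurane the TBA rats all lay above the vehicle rats; under CO2-O2 the groups overlapped. By limma the change was 0.29 ± 0.10 under isoflurane (SE, adjusted p = 0.185) and 0.04 ± 0.10 under CO2-O2 (SE, adjusted p = 0.880), and the 2 effects differed by 0.24 ± 0.14 (SE, adjusted p = 0.528). After quantile normalization the isoflurane change of Cyp4f1 was 0.12.

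Cyp4f4 stood near background and gave no steady level. It read -3.63, -4.99 and -5.56 in TBA isoflurane rats, against -4.95, -3.88 and -4.78 in vehicle isoflurane rats, and -5.50, -4.12 and -5.18 in TBA CO2-O2 rats, against -5.98, -5.08 and -5.00 in vehicle CO2-O2 rats. Levels of the 4 groups ran into each other except that all vehicle isoflurane rats lay above all vehicle CO2-O2 rats. The probe was well above background in 2 of 3 rats of each group but vehicle isoflurane, where it was in 3 of 3, and it was tested only because of that group. The limma change was -0.19 ± 0.54 under isoflurane and 0.42 ± 0.54 under CO2-O2 (SE, adjusted p = 0.893 and 0.767).

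Cyp4f18, a Cyp4f form known for neutrophil expression in mouse, was well above background in TBA CO2-O2 rats 2 and 3 and in vehicle isoflurane rat 1. It did not pass the filter and was left out of the main fit. It read -7.07, -5.34 and -6.51 in TBA isoflurane rats, against -5.65, -5.55 and -6.11 in vehicle isoflurane rats. Under CO2-O2 it read -6.11, -5.62 and -2.73 in TBA rats, against -5.89, -6.30 and -5.87 in vehicle rats, none of which was well above background. TBA CO2-O2 rat 3 stood far above the other 11 rats. Each vehicle CO2-O2 array was set to its dimmest signal well above background, or to the Cyp4f18 signal where that was higher. The TBA CO2-O2 mean was 1.94-fold higher than the vehicle mean so set. This is no lower limit, because spots not well above background can exceed that dimmest signal. Vehicle CO2-O2 rat 3 did, at -5.87 against -6.03. TBA CO2-O2 rat 1, not well above background, entered the TBA mean at its own value. The ratio rests on TBA CO2-O2 rat 3 and is no floor for the effect of TBA. Without that rat it was below 0 on the log2 scale, so no fold is given. Fitted with no filter on dim probes, Cyp4f18 changed by 1.2 ± 0.78 under CO2-O2 and -0.54 ± 0.78 under isoflurane (SE, limma adjusted p = 0.705 and 0.761).

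Granulocyte markers were near background, with 4 of 8 listed genes kept. Elane, Ngp and Cxcr2 were not kept and Mpo was not matched by name. Their summed signal was 0.381, 0.268 and 0.445 in TBA CO2-O2 rats 1 to 3, against 0.217 to 0.443 in vehicle CO2-O2 rats, so rat 3 was only just above the highest vehicle rat. It was 0.187 to 0.307 in TBA isoflurane rats and 0.135 to 0.229 in vehicle isoflurane rats. The part of granulocytes in the Cyp4f18 signal of TBA CO2-O2 rat 3 was not tested.

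Set side by side, the TBA comparisons gave no call among the 7 Cyp4 genes. Under CO2-O2, 0 of 7 passed an adjusted p of 0.05 in limma, against 0.149% of all features, and 0 had an unadjusted p below 0.05, against 14.3%. Under isoflurane, 0 passed, against 0.395%, and Cyp4a1, Cyp4a2 and Cyp4f1 had an unadjusted p below 0.05, 3 of 7 against 17.8%. Averaged over the anesthetics, 0 passed, against 1.87%, and the same 3 genes were below 0.05 unadjusted, against 19% of features. The difference between the effects gave 0 calls, against 0% of features, and 0 of 7 below 0.05 unadjusted, against 12.1%.

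Groups did not overlap for 1 of 7 genes under CO2-O2 (Cyp4a3, higher with TBA), against 21% of features (11.9% higher and 9.07% lower). They did not overlap for 2 of 7 under isoflurane (Cyp4a2 and Cyp4f1, both higher with TBA), against 23.9% (14.2% higher and 9.72% lower). The estimate was above 0 for 6 of 7 genes under CO2-O2, for 6 of 7 under isoflurane and for 7 of 7 averaged. The median change of the 7 was 0.12 under CO2-O2, 0.29 under isoflurane and 0.17 averaged, against 0.02, 0.02 and 0.01 over all features. These counts and medians include Cyp4f4, which passed the filter only through the vehicle isoflurane rats. It was the 1 gene below 0 under isoflurane (-0.19), a sign that the filter favoured. The averaged effect uses the same rats as the other comparisons, and the Cyp4a8 entry rests on the probe that followed Cyp4a2.

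**Figure D3:**
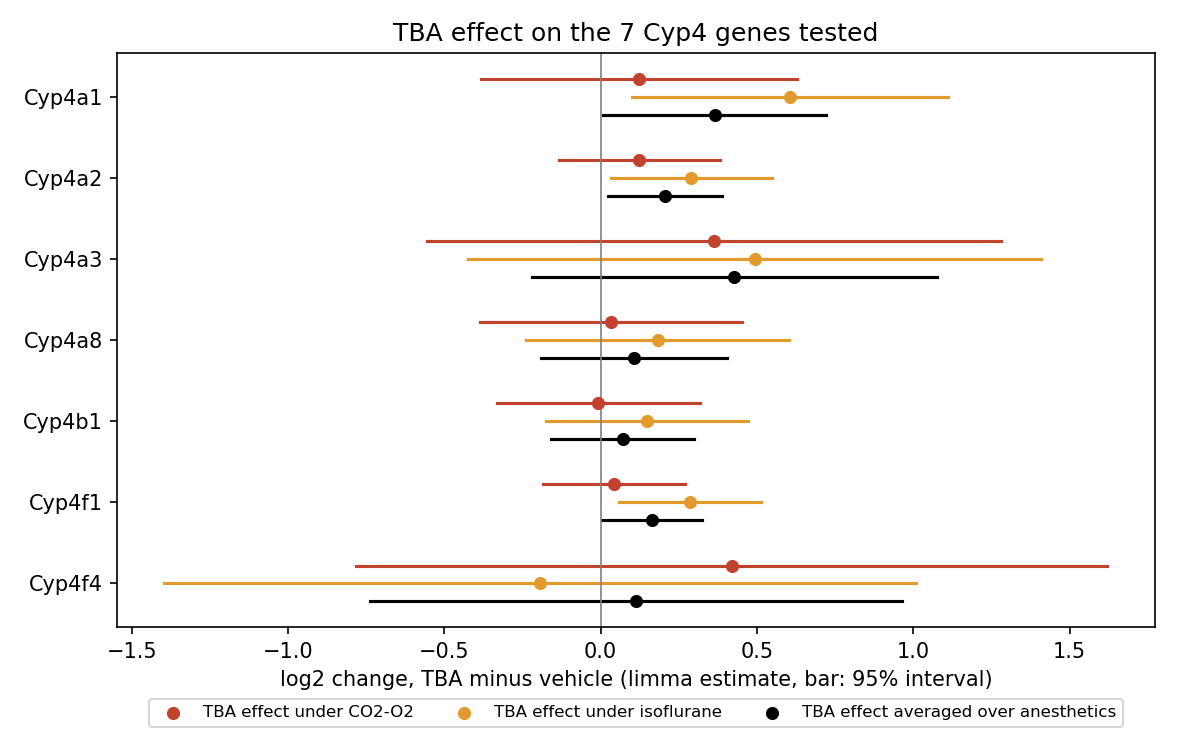
Log2 change of the 7 tested Cyp4 genes with TBA under CO2-O2, under isoflurane and averaged, as the limma estimate with its 95% interval. The intervals of Cyp4a1, Cyp4a2 and Cyp4f1 under isoflurane lie above 0 before adjustment for all features, and the Cyp4a3 and Cyp4f4 intervals are the widest.

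Slide 1 allowed a comparison within 1 slide, of TBA CO2-O2 rat 3 with the 3 vehicle CO2-O2 rats. TBA rat 3 minus the vehicle mean was 0.24 for Cyp4a1, 0.36 for Cyp4a3 and 0.17 for Cyp4f4. It was -0.07 for Cyp4a2, -0.23 for Cyp4a8, -0.14 for Cyp4b1 and -0.07 for Cyp4f1. Cyp4a2, Cyp4a8 and Cyp4f1 thus took the opposite sign to the 3-rat means, with 1 TBA rat and no check on it. For the isoflurane rats no slide held both treatments.

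The anesthetic comparison within a treatment asks whether the gas used at the kill moved these genes. In vehicle rats, isoflurane minus CO2-O2 gave 0 of 7 calls in limma, against 0.105% of features, and 0 of 7 below 0.05 unadjusted, against 18.7%. Cyp4f1 was lower in all vehicle isoflurane rats than in all vehicle CO2-O2 rats, by -0.21 ± 0.10 (log2, SE, adjusted p = 0.298). It was the 1 gene without overlap of the 6 measured on every array, against 29.1% of features (14.9% higher and 14.2% lower). Cyp4f4, which passed the filter only through the vehicle isoflurane rats, lay higher in them and is not counted. Cyp4a1 was -0.40 ± 0.23 (SE, adjusted p = 0.371), and the estimates of the 6 genes measured on every array were all below 0. The median of the 7, -0.18 against 0.01 over all features, includes Cyp4f4, whose 0.82 was favoured by the filter. The S3 markers were lower in the same comparison for 7 of 7 genes (median -0.72, 5 of 7 below 0.05 unadjusted and 0 called in limma), with sums of 88.0 to 142 in vehicle isoflurane rats, against 216 to 270 in vehicle CO2-O2 rats. Their part in the Cyp4 values was not tested. These 2 groups lay on different slides. With slide as a term, bridged by the TBA CO2-O2 rats that lay on both, the estimate was -0.23 for Cyp4a1, -0.38 for Cyp4f1, -0.36 for Cyp4a2 and -0.62 for Cyp4a8, none with an adjusted p below 0.307. Without that term Cyp4a2 was -0.07 and Cyp4a8 -0.22. The bridge has 1 rat on slide 1, TBA CO2-O2 rat 3, so the slide term rests on how that rat differed from rats 1 and 2.

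In TBA rats, isoflurane minus CO2-O2 gave 0 of 7 calls, against 0.00676% of features, and 0 of 7 below 0.05 unadjusted in limma, against 10.8%. No Cyp4 gene had groups without overlap, against 15.1% of features (7.89% higher and 7.23% lower), and the median change was 0.08 against 0.01. Estimates ran between -0.07 for Cyp4a8 and 0.20 for Cyp4f4.

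Genes that act with or after the Cyp4 enzymes were read from lists, whose counts stand beside the shares of all features given above (unadjusted p below 0.05 in 14.3% under CO2-O2, 17.8% under isoflurane and 19% averaged). Among 5 tested relatives of 8 listed in the same family, 0 passed in limma in any TBA comparison and 0 were below 0.05 unadjusted. Cyp4f5 was 1.06 ± 0.89 and Cyp4f6 0.24 ± 0.21 under isoflurane (log2, SE). Without vehicle isoflurane rat 2, Cyp4f5 was -0.22 ± 0.43 (SE). Of the 5 electron donors and partners of P450s, 0 passed and 2 were below 0.05 unadjusted under isoflurane, Cyb5a, cytochrome b5, at 0.24 ± 0.08 and Pgrmc1, a heme-binding P450 partner, at 0.33 ± 0.09 (SE). Por, the P450 reductase, was -0.27 ± 0.13 (SE, unadjusted p = 0.0728 in limma). Of 10 tested Cyp2 and epoxide hydrolase genes, which make and clear the epoxide products of arachidonic acid, 0 passed in any TBA comparison. Unadjusted p in limma was below 0.05 for 3 of 10 under CO2-O2, 3 under isoflurane and 4 averaged. Averaged estimates were above 0 for 5 and below 0 for 5. The first 2 measured in that list were Cyp2e1, a P450 that oxidises small alcohols, at 0.48 ± 0.13 averaged (SE, adjusted p = 0.0824) and Cyp2c11 at -0.30 ± 1.07 averaged.

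Of 16 tested genes of arachidonate release and the other eicosanoid pathways, 0 passed and 3 were below 0.05 unadjusted under isoflurane; the estimate was below 0 for 12 of 16. Pla2g4a, the phospholipase that frees arachidonic acid, was -0.31 ± 0.13 and Pla2g2a 0.23 ± 0.39 under isoflurane (SE). Of 6 tested genes for receptors and effectors of the hydroxyeicosatetraenoic acid, 0 passed and 2 were below 0.05 unadjusted, with Kcnma1, a potassium channel, at 0.04 ± 0.13 under isoflurane (SE). None of these lists held a call under CO2-O2 or in the averaged effect.

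Enzymes that take omega-oxidised fatty acids further, through dicarboxylic acids to peroxisomal beta-oxidation, held 1 call. Of 21 tested, 20 were higher with TBA under isoflurane and 13 under CO2-O2, with medians of 0.28 and 0.10. Unadjusted p in limma was below 0.05 for 12 of 21 under isoflurane and 2 of 21 under CO2-O2. The 1 gene called under isoflurane and averaged stands against 0.395% and 1.87% of features called. Acaa1b, a peroxisomal thiolase, rose by 1.06 ± 0.14 under isoflurane (log2, SE, limma adjusted p = 0.0315) and by 0.86 ± 0.10 averaged (SE, adjusted p = 0.00587). The isoflurane call of Acaa1b was lost with slide as a random block at its estimated correlation (adjusted p = 0.0689) and with the replicate block (adjusted p = 0.0844), and the averaged call was kept (adjusted p = 0.00811 and 0.0201). Over all alternative settings the isoflurane call of Acaa1b was lost in 12 of 24 and the averaged call in 0 of 23. Of 35 tested PPAR alpha targets, which exclude the Cyp4 genes and share Acaa1b and 4 other genes with the first list, 6 rose in the averaged effect, against 1.87% of features called, 1 under isoflurane, against 0.395%, and 0 under CO2-O2, against 0.149%. Unadjusted p was below 0.05 for 18, 16 and 8 of the 35 in that order. Vnn1, a pantetheinase, rose by 0.88 ± 0.15 and Eci1, an enoyl-CoA isomerase, by 0.60 ± 0.12 averaged (SE, adjusted p = 0.0292 and 0.0411). Plin2 and Acot2 were also called. With slide as a random block Eci1 did not pass (adjusted p = 0.0531) nor did Acot2 (adjusted p = 0.0575), and with the replicate block Vnn1 (adjusted p = 0.0572), Eci1 (0.0697), Plin2 (0.0528) and Acot2 (0.0827) did not. Without vehicle isoflurane rat 2 none of these 4 passed in limma (adjusted p = 0.0753, 0.0922, 0.0712 and 0.0985 in that order). Over 23 alternative settings the averaged call was lost in 11 for Vnn1, 15 for Eci1, 12 for Plin2 and 17 for Acot2. The median of that list was 0.36 under isoflurane, 0.14 under CO2-O2 and 0.25 averaged.

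Estimates for the receptor and its partner were below 0 under isoflurane and above 0 under CO2-O2, and did not pass. Ppara was -0.51 ± 0.33 under isoflurane and 0.37 ± 0.33 under CO2-O2 (log2, SE, limma adjusted p = 0.46 and 0.663), and Rxra, the partner, was -0.29 ± 0.13 and 0.30 ± 0.13 (SE, adjusted p = 0.266 and 0.321). Of 16 tested nuclear receptors and coactivators, 2 fell under isoflurane, against 0.395% of features called. There 10 of 16 were lower and 6 of 16 had an unadjusted p below 0.05 in limma, against 17.8% of features. Ppargc1a, a coactivator of PPAR alpha, fell by 0.44 (adjusted p = 0.0434) and Stat5b, which carries growth hormone signals, fell by 0.65 (adjusted p = 0.0363). With slide as a random block neither passed (adjusted p = 0.0844 for Ppargc1a and 0.0725 for Stat5b), nor with the replicate block (0.0920 and 0.0904). Over 24 alternative settings the isoflurane call was lost in 19 for Ppargc1a and 13 for Stat5b.

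**Figure D4:**
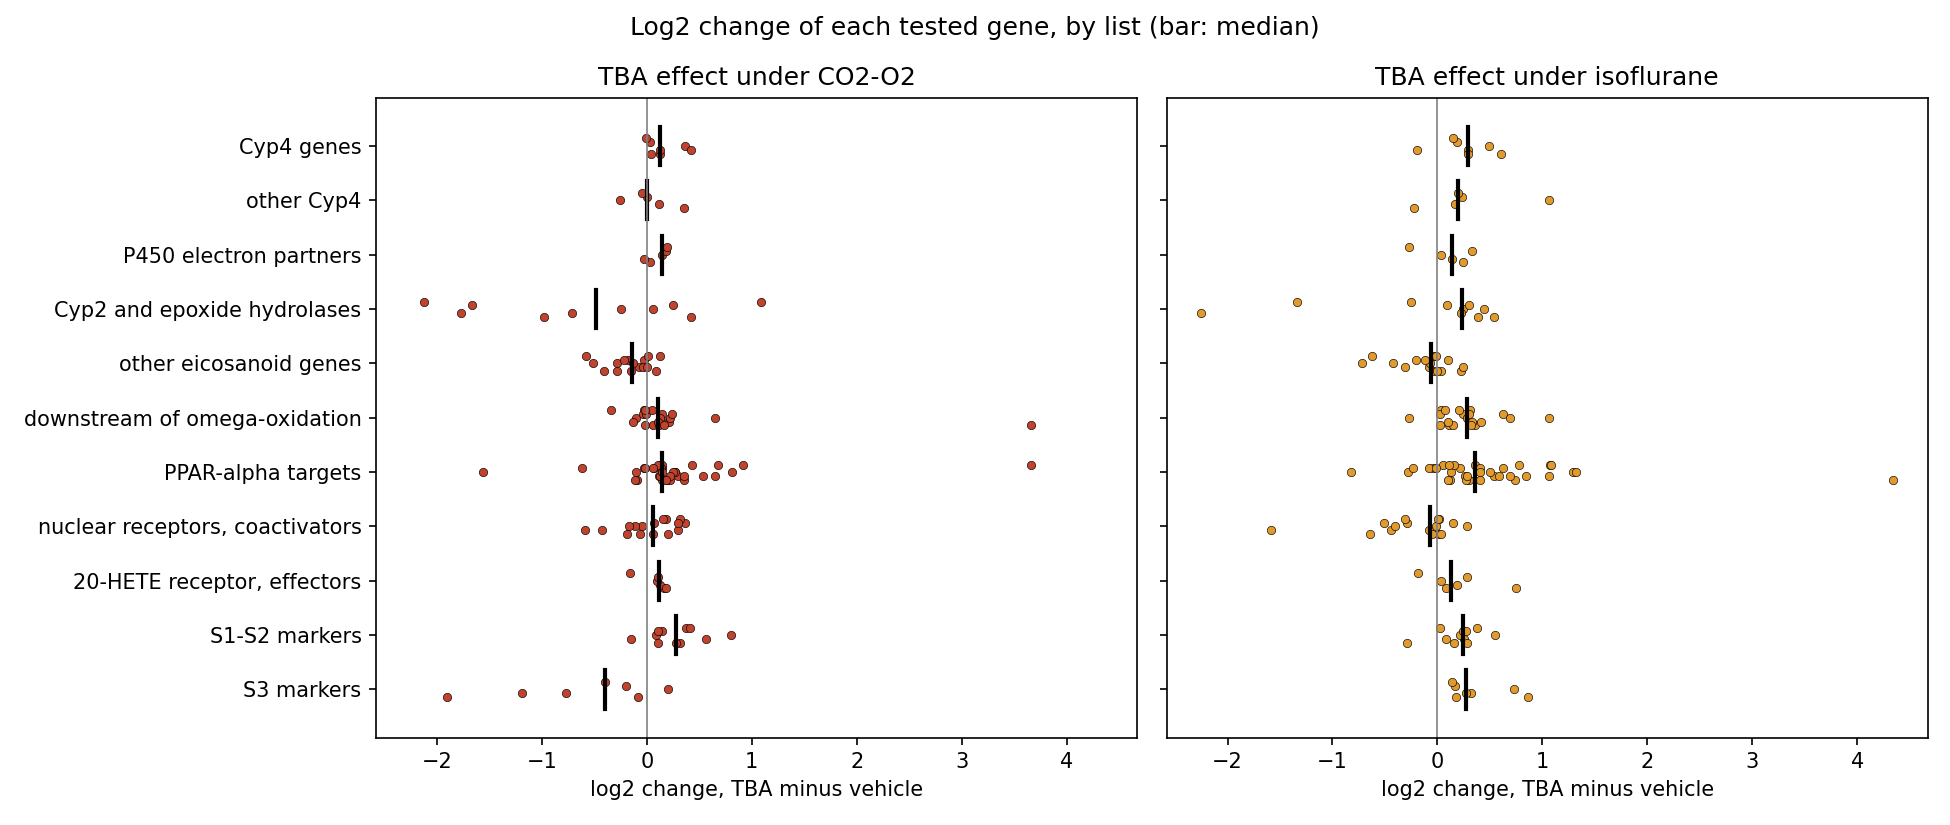
Log2 change with TBA of every tested gene in each list, under CO2-O2 and under isoflurane, a point per gene and a bar at the list's median. The median of the Cyp4 genes was 0.12 under CO2-O2 and 0.29 under isoflurane, and that of the PPAR alpha targets 0.14 and 0.36.

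Over the 12 arrays, the genes whose deviations from group means were most like a Cyp4 gene's were found among 11672 named genes. Cyp4a1 lay nearest to Cd44 (r = 0.95), Abhd16a (0.93) and Anxa2 (0.92). Cyp4a2 lay nearest to Hnf4a (r = 0.97), Tf (0.96) and S100g (0.95), and Cyp4a3 to Tnnt2 (r = 0.96), Gltp (0.95) and Dimt1 (0.94). The brightest Cyp4a8 probe had Asmt (0.94) nearest, Cyp4b1 had Piezo1 (0.975) and Cyp4f1 had Tm2d3 (0.97). These are the highest of many values over arrays that share slides and normalization, and they describe this set of arrays.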

How the data were processed

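The authors deposited spot intensity values of 12 arrays from Agilent Feature Extraction 10.7, named in the submitters' processing notes. Background had been subtracted from the processed intensity within each array, per the file headers. The deposited series table holds a ratio of that signal to each array's 75th percentile, a scale found from the values (column medians 0.101 to 0.107). Each of its columns was nearest (r = 0.9999) to the scanner file of a same-group rat with another number, so replicate numbers are those of the scanner files.

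Here log2 of the processed signal minus the array's 75th percentile was analysed. RefSeq names (GRCr8) were matched by unversioned accession for 27460 of 61657 probes. A 4-mean model was fitted to 29603 features (limma 3.58.1, R 4.3.3, 8 residual and 1.89 prior degrees of freedom), with Benjamini-Hochberg adjustment at 0.05. The fit was tested on simulated data drawn with independent noise for each array. These held no slide or scan-day effect, so they cannot speak to slide and treatment being confounded. P-values and SEs rest on a spread between rats that is pooled over the 4 groups for each feature. A comparison of 2 groups thus also takes in the spread of the groups outside it. The 3 arrays a group limit the precision. An exact permutation test of 3 against 3 rats cannot go below 0.1 and was not used.

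All members were named. Of a list with calls, up to 4 called genes of largest change were named, otherwise the first 2 measured in list order; Ppara, Rxra, Plin2, Acot2, Pgrmc1 and the granulocyte and liver genes were named after their values were seen. Some genes that this rule picks are not reported here. Members, lists and rules were chosen with earlier results of these data known. Alternatives are given in the closing section; those on slide as a fixed term, scan day and the dimmer Cyp4a8 probes were added after seeing the data. No array coordinates are given, since the array design uses another build than the name table.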

Additional observations from a re-analysis of the deposited data

Results flagged for a closer look

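The 2 dimmer Cyp4a8 probes were singled out because 3 of 3 TBA rats lay above the vehicle mean under isoflurane and 3 of 3 below it under CO2-O2. The difference was 0.588 for A_64_P040994 and 0.575 for A_64_P040989 (log2), with unadjusted p = 0.00862 and 0.0123 from the limma interaction and adjusted p = 0.269 and 0.291 over all kept probes, so neither passed. On both probes 3 of 3 TBA isoflurane rats lay above 3 of 3 vehicle isoflurane rats, and the CO2-O2 groups overlapped. Both probes were picked by that pattern in these same values, so the p-values are no separate support for it. The 2 probes read the same gene in the same rats and are not independent of each other. The brightest Cyp4a8 probe gave a difference of 0.15 ± 0.27 (SE, limma).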

How the results depend on the processing

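The 42 member values were recomputed under alternatives: quantile, median or normexp scaling, a stricter filter or none, the deposited series table, the mean of a gene's probes, each probe alone, slide as a random block, replicate block, only the arrays compared, and each array left out. Of 1016 alternative values, 2 passed an adjusted p of 0.05, both for Cyp4a1 without vehicle isoflurane rat 1, and 49 took the opposite sign to an uncalled estimate. Part of the 1016 repeat the main estimate, so their sign could not change. These come from the filters, the replicate block, only the arrays compared, each probe alone, and arrays left out of groups outside the comparison. The dimmer Cyp4a8 probes also left the other genes unchanged, so 49 of 1016 does not measure stability. The number of Cyp4 genes called ran between 0 and 1 over the arrays left out, for the isoflurane and the averaged TBA effect, and was 0 in each other comparison and setting.

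Replicate numbers are shared between groups, but they did not pair the rats: deviations of same-numbered rats correlated at -0.133 to 0.133. In the limma fit with the replicate block, 0 Cyp4 genes passed in each of the 6 comparisons. Cyp4a1 under isoflurane stayed at 0.61 ± 0.22 there (SE, limma adjusted p = 0.224 across all features). Over all features the isoflurane TBA effect had 117 calls, against 0 with slide as a random block, 0 with the replicate block and 0 with only the arrays compared, and the averaged effect had 555, against 323 and 166 with the first pair. Scaling moved the counts both ways. With quantile, median and normexp scaling the isoflurane effect had 51, 307 and 1307 calls, and the averaged effect 376, 668 and 976. With a fixed term for scan day, the averaged effect was 0.42 for Cyp4a1 and -0.03 for Cyp4a8.

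Cyp4a8 took the opposite sign under CO2-O2 when read from its 2 dimmer probes (-0.22). Cyp4f4 and Cyp4f18 lay near background, and their changes are limited by that.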

Other observations

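Cyp4f5, a relative outside the 8 genes, was far lower in vehicle isoflurane rat 2 than elsewhere. Its 2 probes read -4.42 and -7.11 (log2 signal, array 75th percentile at 0) in that rat. In the other 11 rats they read -1.39 to -0.11 and -3.36 to -1.68. Both probes placed the same rat apart, but the -7.11 spot was not well above background and gives no measured level.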
